A study of Homo sapiens with 9 samples.

Results

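The genes described here encode proteins that neutrophils store in granules or use to release extracellular traps. They were a given list of 10 genes (AZU1, PRTN3, ELANE, MPO, CTSG, LYZ, LTF, CAMP, MMP9 and PADI4), and all 10 were found among the 20037 protein-coding genes that RefSeq places on the nuclear chromosomes. For each gene the window was the gene body plus 10 kb on each side, and the flanks were the next 100 kb on each side. Neutrophil extracellular traps (NETs) are webs of decondensed chromatin that carry granule proteins. The libraries came from HL-60, a human promyelocytic leukaemia line, in a differentiated state. In 4 pulldown libraries the cells received 500 nM of the phorbol ester PMA for 4 h to induce NETs, and then 1 µM biotinylated alpha thrombin for 1 h, before the NET DNA was crosslinked, sheared and captured on streptavidin beads. In the 1 KAS library, NET DNA induced for 4 h was treated with 5 mM N3-kethoxal for 10 min, which tags guanines of single-stranded DNA. Its label states no PMA dose and no thrombin. The labels for the 4 input libraries give the same treatment as for the pulldowns, and these libraries were not analysed here. All libraries derive from 1 cell line, the sources used here do not give the agent that differentiated the cells, and the labels name no separate cultures, so the spread between replicates may be technical.

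The azurophil granule proteins are made early in neutrophil development and the specific and gelatinase granule proteins later. Neutrophil elastase and myeloperoxidase move to the nucleus during NET release, and PAD4 converts histone arginines to citrulline, which loosens chromatin. HL-60 cells are arrested near the promyelocyte stage, in which azurophil granule genes are active. The peak lists hold no expression values, so the cell type was not checked against expressed markers.

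No pulldown peak lay in the window or the flanks of any of the 10 genes, and each window held 0 to 2 KAS peaks. Of the 10 genes, 6 had at least 1 KAS peak in the window, against 52.1% of all protein-coding genes. Those 6 genes were AZU1, ELANE, MPO, LYZ, LTF and MMP9, and together they held 8 KAS peaks out of 34247 in the library. PRTN3, CTSG, CAMP and PADI4 held none. In the gene body itself a KAS peak was present for 4 of 10 genes, against 35.8% of all protein-coding genes. With 1 KAS library there is no replicate check on this side, and no p-value is given. The exact 95% interval for 6 of 10 runs from 26.2% to 87.8%, covers counting error only, and includes the share of all genes. AZU1, LYZ and MMP9 were already known to hold a KAS peak near a gene end when the 10 were listed. The counts in the window and body are therefore not independent of the data.

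**Figure D1:**
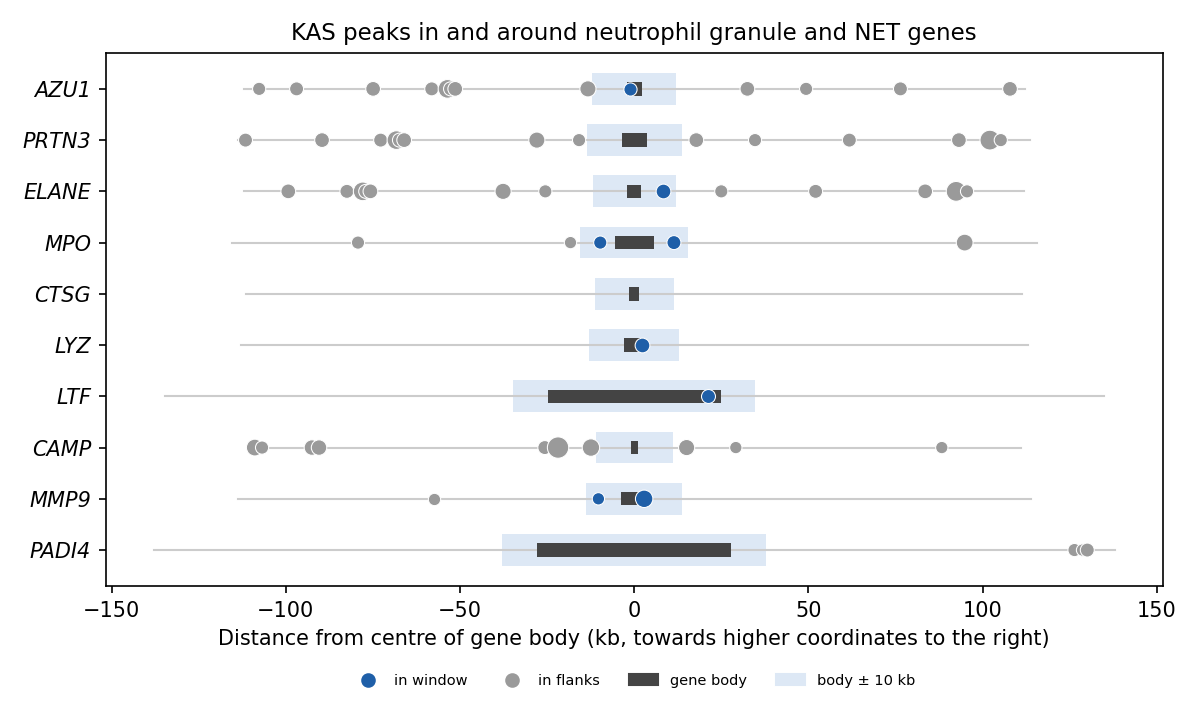
KAS peaks around each of the 10 genes, placed by distance in kb from the centre of the gene body, with higher coordinates to the right. Dark bars are gene bodies, light bars are the windows, grey lines reach the end of the 100 kb flanks, and the area of a point follows the peak's pileup. CTSG has no peak in its window or flanks, LYZ and LTF have 1 peak in the body and none in the flanks, and the chromosome 19 genes and CAMP have 10 to 14 peaks in the flanks.

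AZU1, PRTN3 and ELANE lie next to one another on the short arm of chromosome 19 and encode azurocidin, proteinase 3 and neutrophil elastase, relatives of the chymotrypsin family, of which azurocidin has lost protease activity and kills bacteria. Because the genes are so close, the windows of neighbours share bases and the same peaks fall in more than 1 gene's flanks. On GRCh38, AZU1 spans 827837 to 832018, PRTN3 840999 to 848175 and ELANE 852303 to 856243. The merged windows cover 48.4 kb and held 2 KAS peaks, 33.3 kb apart.

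The first of these peaks was the only KAS peak within 1 kb of a transcription start among the 6 members with a promoter sequence in the RefSeq table (AZU1, PRTN3, CTSG, LTF, CAMP and PADI4). It lay inside AZU1 at chr19:828600-828920, beginning 763 bases after the start, with a length of 321 bases and a pileup of 8. Pileup is the read height at the peak's summit as the authors deposited it, and it is not normalized. The second, at chr19:862266-862550, lay 6.02 kb beyond ELANE at higher coordinates, with a length of 285 bases and a pileup of 10. That position is inside CFD, the gene for complement factor D, which is another protease of the same family. PRTN3 had neither in its window, and its nearest KAS peak was the one in AZU1, 12.1 kb away.

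To show the DNA next to the nearest peak and at genes with other patterns, the 250 bases before the transcription start are given for 3 genes, from RefSeq on GRCh38.p14. AZU1 had the KAS peak nearest to an annotated start, LTF had a peak further inside the gene, and CTSG had no KAS peak in its window or flanks. Capitals mark ATTCC or its reverse complement GGAAT, the unit of the repeat named in the study's title, and each sequence reads 5′ to 3′ on the gene's strand.
AZU1, chr19:827587-827836, plus strand: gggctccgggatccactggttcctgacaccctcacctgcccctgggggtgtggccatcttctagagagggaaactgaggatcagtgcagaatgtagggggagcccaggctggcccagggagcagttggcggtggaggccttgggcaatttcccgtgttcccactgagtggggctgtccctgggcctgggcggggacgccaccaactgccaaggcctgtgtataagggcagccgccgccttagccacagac
LTF, chr3:46485235-46485484, minus strand: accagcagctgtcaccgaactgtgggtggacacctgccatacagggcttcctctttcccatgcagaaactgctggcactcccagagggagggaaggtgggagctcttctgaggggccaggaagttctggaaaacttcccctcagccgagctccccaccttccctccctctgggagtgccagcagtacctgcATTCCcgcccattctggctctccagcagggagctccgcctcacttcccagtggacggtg
CTSG, chr14:24576251-24576500, minus strand: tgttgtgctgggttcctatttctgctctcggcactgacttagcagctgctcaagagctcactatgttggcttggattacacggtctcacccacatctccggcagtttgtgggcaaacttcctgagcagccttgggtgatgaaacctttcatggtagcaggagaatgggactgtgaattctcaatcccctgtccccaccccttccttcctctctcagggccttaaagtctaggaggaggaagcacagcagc

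Single ATTCC units were found in 2 of the 8 promoter sequences of the 6 members, both at LTF, which has 3 annotated starts. Searched on both strands, the unit was present in 28.9% of 22199 promoter sequences of protein-coding genes. A pair of units in a row, on either strand, was found in 0.0450% of these promoters. The GC content was 64.8% for the AZU1 sequence, 61.6% for LTF and 52.8% for CTSG, beside a median of 62.0% for the promoters of protein-coding genes. No KAS peak overlapped the promoter table's sequences of any of the 6 members, and 1.37% of the 15843 protein-coding genes in that table had such an overlap.

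The chromosome 19 genes sat in a stretch rich in KAS peaks, on a chromosome where this is common. The median flank density was 0.45 peaks per 10 kb for protein-coding genes of chromosome 19, beside 0.15 for all protein-coding genes. The window of AZU1 held 0.41 peaks per 10 kb and its flanks 0.60. ELANE had 0.42 in the window and 0.60 in the flanks. PRTN3 had 0 in the window and 0.70 in the flanks, a flank density above that of 95.5% of protein-coding genes. The direction was not fixed for AZU1 and ELANE. With windows of 5 kb AZU1 had 0.71 against 0.50, and ELANE had 0.42 against 0.40 with flanks of 50 kb and against 0.25 with the KAS peaks of higher fold. Of these 3 genes, 2 had a KAS peak in the window, against 71.1% of the 1451 protein-coding genes of chromosome 19 and 63.9% of the 756 with a body under 15 kb. In the body 1 of 3 had a peak, against 44.4% and 25% of these sets, and within 1 kb of an end 1 of 3, against 12.5% and 10.6%. In none of the 3 was the window denser than the flanks, against 39.8% and 36.9%. The 14 KAS peaks in the flanks of PRTN3 had pileups of 8 to 18. In that set 10 lay in genes, 3 of them in ARID3A, which encodes a DNA-binding protein, and the highest, with a pileup of 18, was one of these.

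MPO, on chromosome 17 from 58269855 to 58280935, encodes myeloperoxidase, the enzyme that makes hypochlorous acid in azurophil granules. Its body held no KAS peak, but a peak lay on either side of it. The lower one, at chr17:58265529-58265773, was 4.08 kb from the body and had a pileup of 8. It lay in LPO, which encodes lactoperoxidase and belongs to the same enzyme family. The upper one, at chr17:58286648-58286940, was 5.71 kb from the body, had a pileup of 9 and lay in no annotated gene. The third peroxidase gene of the cluster, EPX for eosinophil peroxidase, held 1 KAS peak in its body and LPO held 2. The density was 0.64 peaks per 10 kb in the MPO window and 0.15 in its flanks, which rests on 2 and 3 peaks.

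CTSG encodes cathepsin G, a granule protease whose gene lies on chromosome 14 at 24573518 to 24576250 beside the mast cell chymase gene CMA1 and the granzyme genes GZMH and GZMB. No KAS peak was found in the window or the flanks, and none of these neighbours held one. The nearest KAS peak was 121 kb from CTSG, further than for 85.7% of protein-coding genes. Of all protein-coding genes, most with longer windows, 15.4% had no KAS peak in their own window or flanks.

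LYZ encodes lysozyme, which cleaves bacterial cell walls, and spans 69348381 to 69354234 on chromosome 12. Its only KAS peak, at chr12:69353531-69353730, lay inside the body, 504 bases from the end at the higher coordinate. It had a length of 200 bases, the smallest in the library and that of 21.5% of KAS peaks, and a pileup of 10. No other KAS peak was found in the 226 kb of the window and flanks together.

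Of the specific granule genes, LTF, for the iron-binding protein lactoferrin, spans 46435645 to 46485234 on chromosome 3 and is read from the higher coordinate. Its single KAS peak, at chr3:46481562-46481761, lay inside the body, 3.47 kb after the annotated start nearest the upper end. It had a length of 200 bases and a pileup of 9. As at LYZ, the flanks held none, and the neighbouring genes LRRC2 and RTP3 held no KAS peak. A peak in the window with none in the flanks was found for 4.31% of protein-coding genes, and this count was chosen after the values were seen.

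CAMP, for the cathelicidin antimicrobial peptide, showed the opposite layout on the same chromosome. Its body, 48223495 to 48225485, and its window held no KAS peak, while 10 lay in the flanks, 7 of them at lower coordinates. Flank density was 0.50 peaks per 10 kb, above that of 87.9% of protein-coding genes. The layout depended on the window size: with 20 kb on each side CAMP had 0.48 in the window against 0.40 in the flanks. The nearest peak was 11.3 kb from the body, just outside the window, with a pileup of 14. The next but one reached 21, the highest pileup in the flanks of any member. Its fold over the caller's background was low, at 3.34, and only 0.975% of KAS peaks had a lower fold. Of the 10 flank peaks, 8 lay in no annotated gene and the others lay in ZNF589 and SPINK8.

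MMP9 encodes gelatinase B, the collagen-degrading enzyme of gelatinase granules, and spans 46008908 to 46016561 on chromosome 20. It held the highest of the 8 window peaks, at chr20:46015454-46015721, inside the body and 840 bases from its end at the higher coordinate. This peak had a length of 268 bases and a pileup of 14. It also lies in SLC12A5-AS1, a non-coding gene that overlaps MMP9, so it cannot be assigned to either gene. A second peak, at chr20:46002307-46002609, lay 6.30 kb below the body with a pileup of 7, the lowest of the 8. The window held 0.72 peaks per 10 kb, the highest density among the members and above that of 93.4% of protein-coding genes, and the flanks held 0.05. Neither of its peaks was left among the 50% of KAS peaks of higher fold or among those with a −log10 q of at least 5, where the window held 0.

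PADI4, the gene for the histone-citrullinating enzyme PAD4, spans 17308197 to 17364004 on chromosome 1 and is the longest of the 10 at 55.8 kb. Neither its body nor its window held a KAS peak. The nearest was 98.4 kb above the body, further than for 83.1% of protein-coding genes, at the outer edge of the flank with 2 others. The neighbouring relatives PADI1, PADI3 and PADI6 held none in their bodies, whereas PADI2 held 2.

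**Figure D2:**
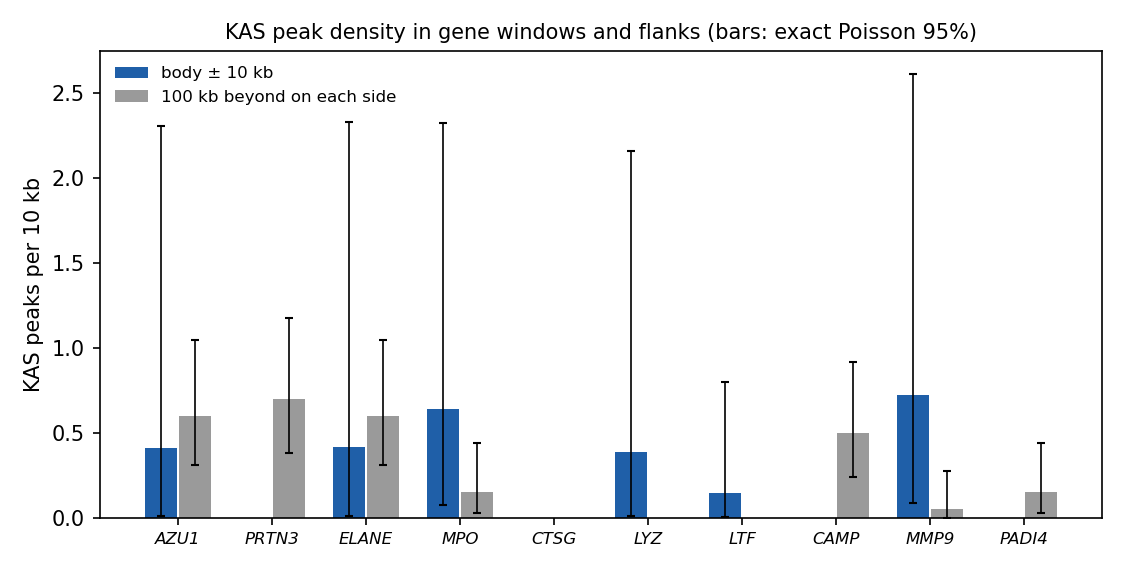
KAS peaks per 10 kb in the window (blue) and in the flanks (grey) of each gene, counted by the centre base of the peak, with exact Poisson 95% intervals where at least 1 peak was counted. Densities were higher in the window than in the flanks for MPO, LYZ, LTF and MMP9, and each window rests on 0 to 2 peaks.

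The density of KAS peaks was higher in the window than in the flanks for 4 of 10 genes, against 33.5% of all protein-coding genes. These were MPO, LYZ, LTF and MMP9. The median density of the 10 windows was 0.27 peaks per 10 kb, beside 0.05 for all protein-coding genes, while the flanks had a median of 0.15 in both. The means lay closer, at 0.27 in the member windows and 0.20 in those of all protein-coding genes, and the mean of the member flanks was 0.28, beside 0.21 for all. Merged so that each base counted once, the member windows held 8 peaks in 323 kb, or 0.25 per 10 kb (exact Poisson 95% interval 0.11 to 0.49). The merged flanks held 30 peaks in 1600 kb, or 0.19 per 10 kb (0.13 to 0.27). The intervals overlap, and a difference between windows and flanks was not tested.

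Gene length changes the share that a gene reaches by its size alone, and the members were short, with a median body of 6.52 kb. All 10 had a body under 60 kb, and of the 14658 protein-coding genes in that range 45.7% had a KAS peak in the window, 25.1% in the body and 6.69% within 1 kb of an end, and 32.2% had a window denser than the flanks. Of the 8 members with a body under 15 kb, 5 had a KAS peak in the window, against 36.7% of the 7602 protein-coding genes of that size. In the body the counts were 3 of 8 members and 10.8% of these genes, near an end 3 of 8 and 6.06%, and for a window denser than the flanks 3 of 8 and 27.6%. The 3 body peaks are the same as the 3 end peaks, at AZU1, LYZ and MMP9.

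A KAS peak lay within 1 kb of a gene end for 3 of 10 members, against 6.51% of all protein-coding genes. However, these 3 genes were already known to hold such a peak when the 10 were listed. Neither this count nor those of the short members in the body or near an end therefore support anything. The same 3 peaks also enter the window counts, window densities and other body counts given above. Those values are no independent comparison with other genes either. The 3 peaks, in LYZ, AZU1 and MMP9, lay 504, 763 and 840 bases from the nearer end. With ends of 500 bases none of the 10 had one, beside 3.60% of protein-coding genes. Only 1 of the 3 remained, the peak in LYZ, among KAS peaks with a deposited −log10 q of at least 5.

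**Figure D3:**
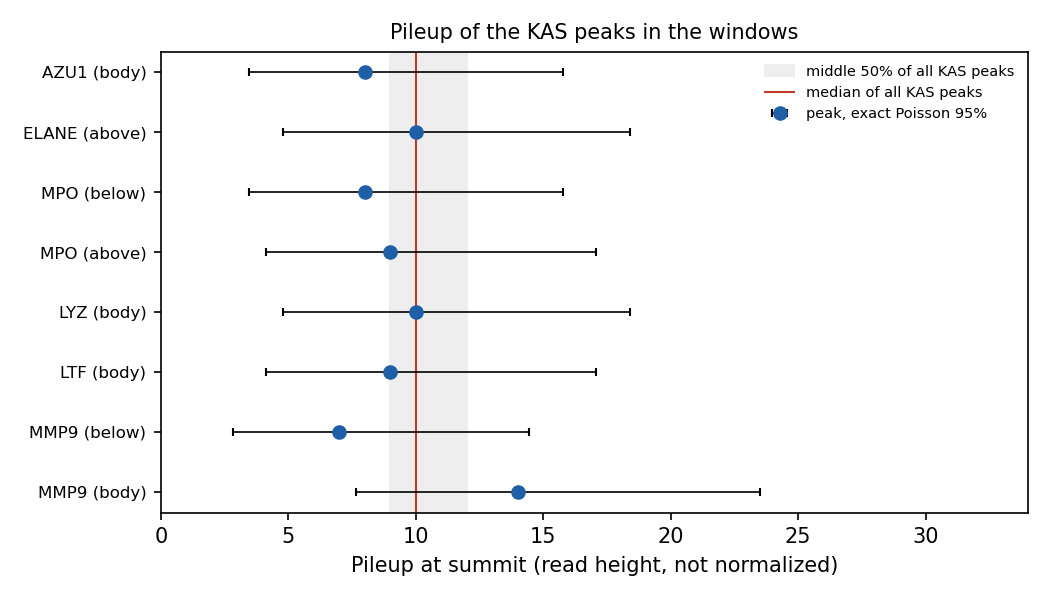
Pileup at the summit of the 8 KAS peaks in the windows, with exact Poisson 95% intervals, beside the median (red line) and the middle 50% (grey band) of all KAS peaks. Labels give the gene and whether the peak lay in the body, below it or above it. All 8 intervals include the library median of 10, as intervals this wide do for most KAS peaks.

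The 8 peaks in the windows were ordinary for the library. Their pileups were 8 at AZU1, 10 at ELANE, 8 and 9 at MPO, 10 at LYZ, 9 at LTF, and 7 and 14 at MMP9. The median was 9, beside 9 for the 30 further peaks of the flanks and 10 for all 34247 KAS peaks. The exact Poisson interval of even the highest, 14 at MMP9, runs from 7.65 to 23.5 and includes the library median. Such wide intervals include that median for most KAS peaks of the library, so they cannot decide whether the 8 peaks differ from others in height. Only the MMP9 peak was above the upper quartile of the library, 12, and 81.7% of KAS peaks had a lower pileup than it. Lengths ran from 200 to 321 bases with a median of 276.5 in the windows, 266.5 in the flanks and 248 in the library.

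Fold enrichment, the authors' value for signal over the caller's local background, did not rank the peaks as pileup did. It was highest, at 6.18, for LYZ and for the peak beyond ELANE, and lowest, at 4.14, for the lower MMP9 peak. The MMP9 body peak had a fold of 4.51 in spite of its pileup of 14, whereas the AZU1 peak reached 5.06 with a pileup of 8. The library median was 5.43. Deposited −log10 q values ran from 2.76 to 5.92 with a median of 4.43, beside 4.91 for all KAS peaks.

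The thrombin pulldown lists held 886, 570, 790 and 882 peaks in replicates 1 to 4. None of these lay in a member window or flank (0 of 10 genes in each replicate), against 0.0749% of all protein-coding genes with a peak in the window in any of the lists and 0.274% with one in the flanks. In replicates 1 to 4 the window shares were 0.02%, 0.02%, 0.0549% and 0.0549%, and the flank shares 0.115%, 0.0649%, 0.2% and 0.21%. At such a low background a list of 10 genes would rarely show one, so the count of 0 does not set the members apart from other genes.

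**Figure D4:**
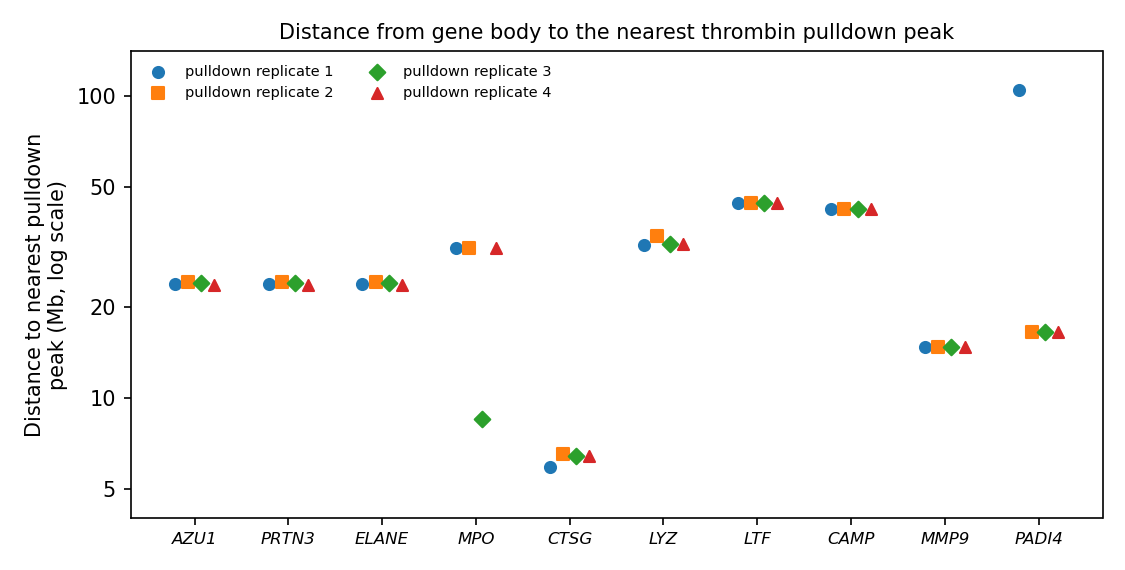
Distance in Mb, on a log scale, from each gene body to the nearest pulldown peak on its chromosome, with a point for each of the 4 pulldown replicates. Replicate 3 stands lower at MPO (8.52 Mb) and replicate 1 stands higher at PADI4 (104 Mb), and the replicates of each other gene lie closer together.

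The nearest pulldown peaks were far from the genes. The median distance over the 10 genes was 27.6, 24.1, 24.0 and 23.6 Mb in replicates 1 to 4, a mean of 24.8 ± 1.85 Mb (SD, n = 4), beside 25.2 ± 2.29 Mb for all protein-coding genes. The latter leaves out, in replicate 4, 848 genes with no pulldown peak on their chromosome. CTSG was nearest, at 6.31 ± 0.278 Mb (SD, n = 4), and its nearest peaks lay at lower coordinates on chromosome 14, with starts from 18073990 in replicate 2 to 18679960 in replicate 1. LTF was at 44.0 Mb and CAMP at 42.3 Mb in every replicate, from the same place on chromosome 3, where the 4 nearest peaks started within 95 bases of one another. MMP9 was 14.8 Mb away in every replicate, from a place on chromosome 20 where the peaks had pileups of 195, 200, 196 and 197. The fold enrichments of these peaks were 1.70, 1.54, 1.84 and 1.72, the lowest among the nearest peaks of the members. Genes on 1 chromosome share their nearest peaks, so AZU1, PRTN3 and ELANE, at 23.9 Mb each, are not independent values.

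The replicates differed most for MPO and PADI4, and LYZ and CTSG each had 1 replicate apart from the others by less. For MPO the distance was 31.3 Mb in replicates 1, 2 and 4 and 8.52 Mb in replicate 3, where the nearest peak lay at chr17:66798727-66799006, inside PRKCA. For PADI4 it was 104 Mb in replicate 1 and 16.5 Mb in replicates 2, 3 and 4, whose nearest peaks on chromosome 1 started at 790161, 791214 and 791193.

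**Figure D5:**
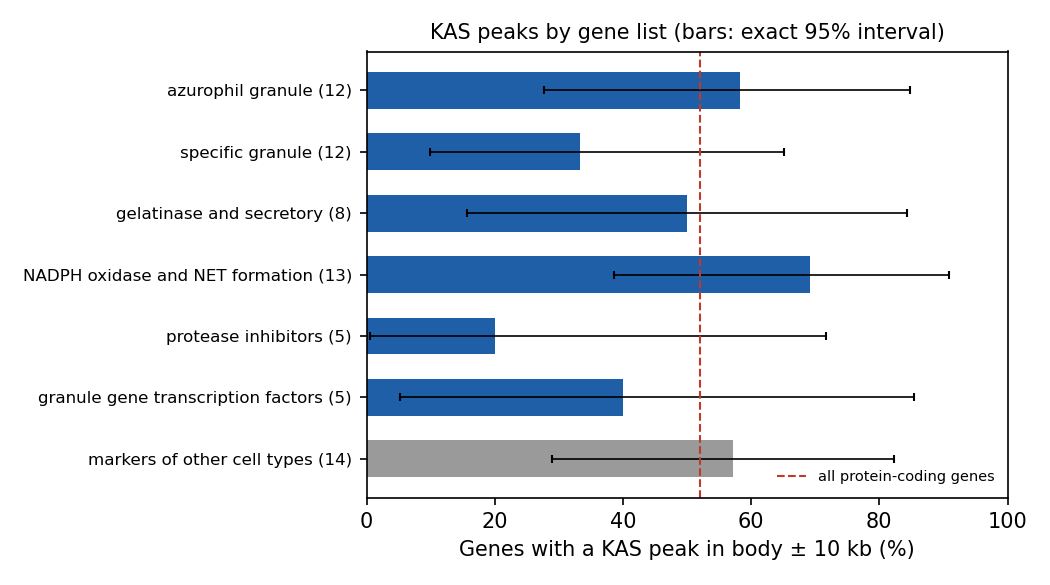
Percent of genes with a KAS peak in the window for 6 lists of neutrophil genes (blue) and for markers of other cell types (grey), with exact 95% intervals and the number of genes in brackets. The dashed line marks 52.1%, the share of all protein-coding genes, and every interval crosses it. That share is not matched to the lists for gene length. The azurophil and gelatinase lists include AZU1, LYZ and MMP9, already known to hold a KAS peak when the members were listed.

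The wider lists of neutrophil genes include the 10 members and were set beside the 52.1% of all protein-coding genes without matching for gene length. The median body was 5.02 kb for azurophil granule genes and 33.4 kb for genes of the NADPH oxidase and NET formation. Of protein-coding genes with a body under 15 kb, 36.7% had a KAS peak in the window. A KAS peak lay in the window of 7 of 12 azurophil granule genes, 4 of 12 specific granule genes and 4 of 8 gelatinase and secretory genes. The azurophil count includes AZU1 and LYZ, and the gelatinase and secretory count includes MMP9. These genes were already known to hold a KAS peak when the members were listed. Outside the 10 members the counts were 3 of 6, 3 of 10 and 3 of 7. Among azurophil genes outside the 10 members, BPI, for a protein that binds bacterial endotoxin, held 4 KAS peaks in its window with pileups up to 10. The serine protease gene PRSS57 and the cathepsin C gene CTSC, whose product activates granule proteases, held 1 each. Of the specific granule genes, OLFM4, MMP8 and PGLYRP1 held 1 each, with highest pileups of 10, 62 and 9. Of the gelatinase and secretory genes, MMP25, for a membrane-bound metalloproteinase, held 4 KAS peaks, ALPL, for an alkaline phosphatase, held 5, and the complement receptor gene CR1 held 2, with highest pileups of 9, 9 and 12.

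For genes of the NADPH oxidase, which makes the superoxide burst, and of NET formation the count was 9 of 13. NCF1, which has near-identical pseudogene copies, held 3 KAS peaks and is uncertain for that reason. NCF4 held 1, RAC2 held 2, and the protein kinase C genes PRKCA and PRKCB, targets of PMA, held 10 and 7. These kinase genes are long, 508 and 385 kb, and their window densities of 0.19 and 0.17 peaks per 10 kb were below their flanks at 0.25 and 0.20. For inhibitors of granule proteases the count was 1 of 5, SERPINA1 for alpha-1 antitrypsin, and for transcription factors of granule genes 2 of 5, SPI1 and RUNX1. Leaving out the 10 members, 21 of 45 genes of these lists (46.7%) had a KAS peak in the window, beside 52.1% of all protein-coding genes. Of the 45, 2 (4.44%), PRKCA and SPI1, had one within 1 kb of an end, beside 6.51%.

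Markers of other cell types gave similar counts, at 8 of 14. Each list's exact 95% interval includes the 52.1% of all protein-coding genes, a share not matched for gene length. Of these 14 genes, 2 (14.3%) held a KAS peak less than 1 kb from an end, beside 6.51% of all protein-coding genes. They were the lymphocyte gene CD3D and the platelet gene ITGA2B.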

How the data were processed

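Peak lists of 4 pulldown libraries and 1 KAS library were used, 1 list per library, in the layout of MACS2's peak table. The submitters' processing notes list MACS2 2.2.7.1, BWA, Picard 2.27.4, bedtools 2.30.0, SAMtools 1.6 and GRCh38.p13 but no roles, and no source used here says whether inputs served as control. The deposited pileup is a signal at the summit, not normalized, with a highest value of 200. The −log10 p and −log10 q columns as deposited, and the authors' fold enrichment, a ratio over the caller's background, are per peak and were used to describe or filter. Peak numbers began at 1951 for KAS and at 195 to 259 for the pulldowns, and any lower-numbered peak was not analysed here. The lists carry no totals of reads, so the depth of each library is unknown. Intervals allow for counting error alone. Pulldown lists were not duplicates, since any pair shared 27.4% to 56.9% of the union of their bases.

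Gene bodies came from the RefSeq table of GRCh38.p14, which gives no exons, so peaks are placed by body only. Promoters came from the RefSeq promoter table, which held 6 of the 10 members and not LYZ, MPO, ELANE and MMP9. A peak counted as in a window if it shared at least 1 base with it, and densities used the centre base. Exact Poisson and Clopper-Pearson intervals are at 95%. No comparison between groups was tested: there is 1 KAS library, and the pulldown lists were described by counts and distances. The only test was Dixon's, for a replicate apart from the others. All 10 members are named. From the wider lists, genes with an end peak (1 kb) and at most 4 further genes per list with the highest pileup were to be named, and RAC2, NCF4, PRKCB and the relatives and neighbours of members were named after their values were seen. Some genes are not reported here by name. The members and lists were chosen with earlier results of these data known. Alternatives changed the window, the flanks, the gene ends, the peaks used and the replicates. Scripts ran in Python 3.11.15 with SciPy 1.17.1, pandas 2.3.3 and NumPy 2.4.6. Counts equalled those of bedtools 2.31.1 for 20037 of 20037 genes, and on simulated peaks placed among 19126 genes the counts of 200 of 200 planted genes were recovered.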

Additional observations from a re-analysis of the deposited data

Results flagged for a closer look

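Distances from gene bodies to the nearest pulldown peak were examined for a replicate far from the other three by Dixon's gap ratio at the 95% level. Of 11 sets of 4 values 5 passed. The count of about 0.55 that chance gives assumes independent, normally distributed values, which was not tested for these distances. Genes on 1 chromosome and the median over the genes share peaks. For MPO and PADI4 the gap ratios were 0.999999 and 0.999985, because the other replicates had nearly equal distances. The 5 and the 0.55 are therefore not compared here. MPO had 8.52 Mb in replicate 3, against 31.3 Mb in the other replicates. PADI4 had 104 Mb in replicate 1, against 16.5 Mb in the others. CTSG had 5.89 Mb in replicate 1, against 6.42 Mb in replicates 3 and 4. LYZ had 34.2 Mb in replicate 2, against 32.1 to 32.2 Mb, in a list with 2 peaks on chromosome 12. The median over the 10 genes was 27.6 Mb in replicate 1, against 23.6 to 24.1 Mb.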

How the results depend on the processing

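Of 37 recalculated values 31 stayed within 1.5 times the main count or within the main spread (SD over the 8 peaks, or over the 4 replicates), and 6 did not. When KAS peaks were limited to the 50% with higher fold, 3 genes had a KAS peak in the window (34.5% of protein-coding genes) and 1 had one within 1 kb of an end (3.16%). With KAS peaks of −log10 q of at least 5, the counts were 2 in the window (31.0% of protein-coding genes), 2 denser than the flanks (ELANE and LYZ, 24.4%) and 1 near an end (2.77%). With ends of 500 bases, 0 genes had an end peak. Windows of 5 and 20 kb gave 5 and 8 genes with a peak, against 45.0% and 61.5% of protein-coding genes. Without each pulldown replicate in turn, the median distance ran from 23.9 to 25.2 Mb. The counts of genes with a pulldown peak stayed at 0. Leaving out a list or using windows of 5 or 20 kb could not change this, as the flanks held none. These fixed values are among the 31 that stayed. Only flanks of 500 kb could have raised a count, and they also gave 0. Counts per gene were added after seeing the data: a window of 20 kb gave PRTN3 and CAMP 2 peaks each. No paired analysis was possible because no input list was analysed and no groups were compared by a test. The limits are the single KAS library, the unknown depth and 0 to 2 peaks per window.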

Other observations

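Among the wider neutrophil lists, PRKCA, which encodes protein kinase C alpha, a receptor for PMA, was the only gene with a pulldown peak in its window. This is 1 of the 45 list genes outside the members, beside 0.0749% of all protein-coding genes. PRKCA is long, at 508 kb, and a link of the peak with PMA was not tested. The pulldown peak was found in replicate 3 alone, at chr17:66798727-66799006 inside the gene, with a pileup of 57 and a fold of 2.37. It overlapped a KAS peak at chr17:66798489-66799624 with a length of 1136 bases and a pileup of 101, higher than that of 99.0% of KAS peaks. The other 9 KAS peaks in PRKCA had pileups of 8 to 15, and one of them, at chr17:66302475-66302858, covered the end of the gene at the lower coordinate with a pileup of 8.

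MMP8, for neutrophil collagenase, had 1 KAS peak in its window, at chr11:102730897-102731439 and 5.94 kb outside the body, with a pileup of 62 and a length of 543 bases. SPI1, which encodes the myeloid transcription factor PU.1, had a KAS peak of 1060 bases at chr11:47355688-47356747, inside the gene and 828 bases from an end, with a pileup of 10.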
